A study of Mus musculus with 4 samples.

Results

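The genes described here encode the endoplasmic reticulum (ER) chaperone BiP and the proteins that work with it: Hspa5 (BiP), Hyou1, Hspa13, Dnajb9, Dnajb11, Dnajc1, Dnajc3, Dnajc10, Sil1 and Sdf2l1. These 10 genes, of 21900 protein-coding genes, were listed by name, and their peaks are the intervals whose nearest gene in the deposited table is one of them. That gave 9 peaks of 4890, 1 at each of 9 genes, and none at Dnajc1. The assay was ChIP-seq, the sequencing of DNA that an antibody against XBP1s pulls down with its chromatin, in natural killer (NK) cells. These cytotoxic lymphocytes were purified from mouse spleen. XBP1s is the transcription factor made from spliced Xbp1 mRNA. The mice are named Il15TgXbp1f/f (strain C57BL/6), which by standard nomenclature is an Il15 transgene together with a loxP-flanked Xbp1 allele. The labels name no Cre driver, so the floxed allele is not stated to be deleted, and they give neither the transgene's promoter nor the number of mice. Before fixation the cells were kept for 1 h with 50 ng/ml of IL-15, a cytokine that NK cells need to survive. The 4 libraries are 2 XBP1s immunoprecipitations and 2 inputs. Both groups share genotype and treatment, so no untreated or Xbp1-deleted cells enter the comparison.

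The only values are those of 1 combined list of intervals with no column for any single library. No value below therefore has a replicate error, library depths are unknown, and no difference was tested. The deposited score is 0 for all peaks, so the width of an interval is the only size it has, and width is not a measure of signal strength. Marker genes of cell types were counted where they were the nearest gene of a peak at any distance. They were 7 of 10 NK, 0 of 5 B cell, 1 of 5 T cell and 2 of 5 myeloid genes. Of all protein-coding genes, 17.8% are the nearest gene of a peak. Within 5000 bp of a start the counts were 5 of 10, 0 of 5, 1 of 5 and 1 of 5, against 15.9%. A peak is not expression, so these counts do not test the purity of the cells.

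BiP is the HSP70 of the ER lumen. Like other HSP70 proteins it binds unfolded chains in a cycle driven by ATP. J-domain proteins bring it substrates and trigger ATP hydrolysis, and nucleotide exchange factors release ADP so that the chain is let go. BiP also holds the stress sensors of the ER in check, and its gene is a standard target of the unfolded protein response, in which XBP1s acts. The best known element of that response is the ER stress response element (ERSE), a CCAAT box bound by NF-Y followed at a fixed spacing by the core CCACG, which ATF6 and XBP1s recognise. ERSE-II holds the same parts at a closer spacing and in the other orientation of the CCAAT box.

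Promoter windows of RefSeq (build GRCm38.p6, the assembly of mm10) run from 250 bases before the start of transcription to 50 bases after it. They were found for 7 of the 10 genes: Hspa5, Dnajb9, Dnajb11, Dnajc1, Dnajc3, Dnajc10 and Sdf2l1. The windows were searched on both strands for ERSE (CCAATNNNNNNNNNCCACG), ERSE-II (ATTGGNCCACG), a UPRE core (TGACGTGG), a CRE (TGACGTCA), the sequence CCACGT, its shorter form CCACG, and the CCAAT box alone. The CCAAT and CCACG matches include those inside the longer elements. Positions are counted along the gene with the first transcribed base as 0.

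Complete ERSE sequences were found in the windows of Hspa5 and Dnajc3, 2 of the 7 genes, whereas 0.119% of all 32851 RefSeq promoter windows and 0.265% of the windows of genes with a peak hold one. All windows include noncoding genes, while the windows of genes with a peak are of protein-coding genes only. Some genes have more than 1 start. The bases before the start of Hspa5 and Dnajc3 are printed 5′ to 3′ because they hold the complete element. Each CCAAT box and each CCACG core is in capitals, on either strand. The Hspa5 stretch is chr2:34771840-34772089 on the plus strand and that of Dnajc3 is chr14:118937682-118937931 on the plus strand.
Hspa5: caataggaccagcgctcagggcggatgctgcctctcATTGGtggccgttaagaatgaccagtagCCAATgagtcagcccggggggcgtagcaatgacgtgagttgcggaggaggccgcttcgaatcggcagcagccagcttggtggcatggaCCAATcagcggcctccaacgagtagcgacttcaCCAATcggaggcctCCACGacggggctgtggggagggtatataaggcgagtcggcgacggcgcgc
Dnajc3: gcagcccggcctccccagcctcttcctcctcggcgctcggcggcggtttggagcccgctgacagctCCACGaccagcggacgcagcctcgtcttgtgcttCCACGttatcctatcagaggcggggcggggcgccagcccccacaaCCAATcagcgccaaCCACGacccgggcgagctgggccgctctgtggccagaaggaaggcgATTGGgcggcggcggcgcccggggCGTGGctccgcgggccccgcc

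In Hspa5 the ERSE spans bases -65 to -47 (chr2:34772025-34772043), and its midpoint lies 11 bp from the centre of the Hspa5 peak. That window has 4 CCAAT boxes, a number reached by 1.06% of all windows, but only 1 of them is followed by CCACG at the ERSE spacing. In Dnajc3, which encodes the J protein known as P58IPK, the ERSE spans bases -105 to -87, with its midpoint 195 bp from the peak's centre. The Dnajc3 window also has 4 CCACG cores, 1 of which is part of a CCACGT at -150 to -145. With 1 mismatch allowed among the spelled bases of ERSE, the count stayed at 2 of 7, while the share of all windows rose to 1.5%.

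Dnajb11, which encodes the lumenal J protein ERdj3, holds ERSE-II in its place, 1 of 7 genes, against 0.0365% of all windows and 0.169% of the windows of genes with a peak. It lies just after the start, at bases 7 to 17, with its midpoint 31 bp from the peak's centre. The 29 bases around it (chr16:22857843-22857871, plus strand) are printed with both parts of ERSE-II in capitals, since the element itself is the finding.
Dnajb11: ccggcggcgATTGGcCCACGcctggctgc

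The Dnajb11 window has 5 CCAAT boxes, a number that 0.271% of all windows reach, and all 5 read ATTGG on the gene's strand. No other window of the 7 holds a complete ERSE or ERSE-II. CCACGT, the core with its next base, was found in Dnajb9 (bases -108 to -103) and Dnajc3, 2 of 7 genes, against 8.31% of all windows and 15.4% of the windows of genes with a peak. CCACG alone was in 6 of 7 windows, including that of Dnajc1, against 32.8% of all windows and 52.3% of the windows of genes with a peak. The UPRE core and the CRE were found in 0 of the 7 windows. They are rare, in 0.676% and 1.79% of all windows, so a count of 0 is no contrast with other genes. No match says only that these letters are not in this window.

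The windows of Sdf2l1, Dnajc10 and Dnajc1, which hold neither ERSE nor ERSE-II, are printed next. They are again before the start and 5′ to 3′ with CCAAT and CCACG in capitals. Dnajb9 also holds neither element. The peaks of Dnajb9 (1359 bp) and Sdf2l1 (1274 bp) are wider than those of Dnajc3 (1103 bp) and Dnajb11 (1124 bp), and narrower than that of Hspa5 (2365 bp). Sdf2l1 (chr16:17132384-17132633, minus strand) has the parts of ERSE without its spacing. Dnajc10 (chr2:80315216-80315465, plus strand) had the narrowest peak of the 9, and Dnajc1 (chr2:18392831-18393080, minus strand) had none.
Sdf2l1: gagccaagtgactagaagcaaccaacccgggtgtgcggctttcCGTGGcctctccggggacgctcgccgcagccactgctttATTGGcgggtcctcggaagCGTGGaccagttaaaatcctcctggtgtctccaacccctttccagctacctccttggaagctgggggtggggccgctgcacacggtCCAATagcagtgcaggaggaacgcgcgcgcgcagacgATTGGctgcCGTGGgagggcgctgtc
Dnajc10: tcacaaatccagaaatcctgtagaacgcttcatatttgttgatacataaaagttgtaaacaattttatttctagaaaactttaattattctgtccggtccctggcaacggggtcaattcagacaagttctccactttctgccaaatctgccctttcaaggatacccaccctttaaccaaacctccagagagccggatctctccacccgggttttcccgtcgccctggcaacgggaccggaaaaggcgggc
Dnajc1: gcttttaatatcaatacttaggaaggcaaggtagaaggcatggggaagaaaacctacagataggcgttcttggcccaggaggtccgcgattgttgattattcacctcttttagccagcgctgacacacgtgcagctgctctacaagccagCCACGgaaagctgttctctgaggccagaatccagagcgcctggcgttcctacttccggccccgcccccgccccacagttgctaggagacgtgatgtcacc

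Sdf2l1 has 3 CCACG cores, all on the strand opposite to the gene, and 4 CCAAT boxes, 3 of them before the start. Dnajc10 has neither. Its window is also the least GC-rich of the 7, at 48.7% G and C against 74.3% in Dnajc3, the richest, and a median of 52.7% over all windows. The Dnajc1 window (chr2:18392781-18393080) lies wholly inside the RefSeq gene, which begins at 18394099 on the minus strand. Its values are therefore those of a start within the gene. It has 1 CCACG, no CCAAT box and the lowest ratio of observed to expected CpG (0.623). The other 6 genes lie between 0.771 (Sdf2l1) and 1.10 (Dnajb11). The median ratio was 0.384 over all windows and 0.806 over windows of genes with a peak.

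**Figure D1:**
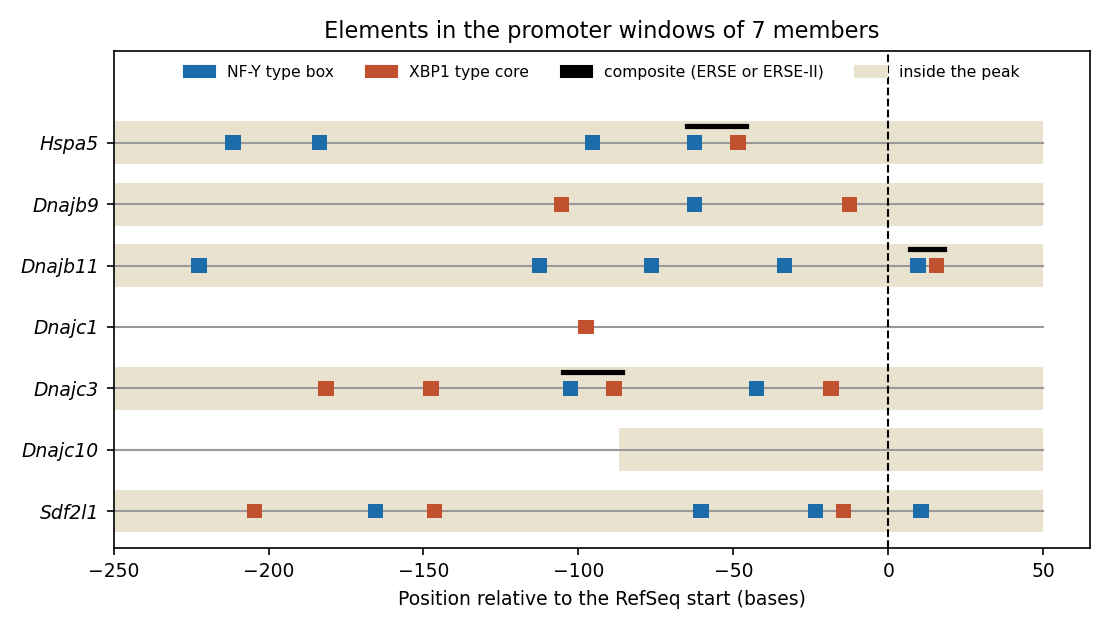
Positions of CCAAT boxes (NF-Y type, blue) and CCACG cores (XBP1 type, red) in the promoter windows of 7 genes, on the x axis in bases from the RefSeq start (dashed line), with 1 gene per row. Black bars mark the complete ERSE of Hspa5 and Dnajc3 and the ERSE-II of Dnajb11, and the shaded part of each row lies inside the peak: all 300 bases for 5 genes, 137 bases for Dnajc10 and none for Dnajc1.

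XBP1s peaks lay over the start that the authors' distances imply at 9 of the 10 listed genes. That share is 90.0% (exact Clopper-Pearson 95% interval 55.5 to 99.7, counting error only). The genes were listed by name and not sampled, so the interval tests nothing. Of all protein-coding genes, 17.8% are the nearest gene of a peak at any distance, and 15.1% of a peak within 1000 bp of the TSS. The share of all genes with a peak over the start was not computed. Peaks of 1000 bp or more were found at 7 of the 10, against 1.36% of all protein-coding genes. All 9 intervals cover the transcription start site (TSS) that the authors' distance implies, as 51.0% of all peaks do. No gene had a second peak at any distance, which is the usual case: 87.3% of protein-coding genes with a peak have only 1. The same 9 peaks were found within 1000 bp of a TSS, among peaks wider than the median of 373 bp, and when peaks near either end of a gene were added. The sources used here do not say if the intervals are overlaps of separate peak calls, in which case a width is that of the overlap.

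Among the HSP70 proteins, Hspa5 had the widest peak of the 10 genes. It spans 2365 bp (chr2:34770863-34773227, annotated as promoter), ranks 10 of 4890 by width and is centred 45 bp upstream of the TSS. It reaches 1227 bp upstream and 1137 bp into the gene. The width is 6.34 times the median of all peaks, 373 bp (interquartile range 258 to 578). The peaks nearest to it in width, among those within 1000 bp of a TSS, were those of Eif1a (2430 bp), Creb3l2 (2414 bp), Pdia4 (2348 bp) and Xbp1 (2296 bp). Creb3l2 encodes an ER-anchored transcription factor, Pdia4 an ER disulfide isomerase, and Eif1a a translation initiation factor.

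Hyou1 encodes GRP170, a large HSP70 relative in the ER lumen that also serves as a nucleotide exchange factor for BiP. Its peak covers 1371 bp (chr9:44378841-44380211, promoter), ranks 123 and is centred 36 bp downstream of the TSS. Its 649 bp upstream and 721 bp downstream make it close to symmetric. Hspa13, an HSP70 relative of the ER that lacks the peptide-binding domain, had a peak of 889 bp (chr16:75766222-75767110) with rank 458, centred 152 bp downstream. The authors' annotation places that centre in intron 1 of 5 of a noncoding transcript, which the RefSeq table lists under Hspa13 itself. The 3 HSP70 genes therefore differ in width by up to 2.66 times, from 889 to 2365 bp.

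Of the 5 J proteins, 4 had a peak, with a median width of 1113.5 bp, against 1371 bp over the 3 HSP70 genes. Dnajb9 encodes ERdj4, a J protein that brings BiP to the sensor IRE1 and to misfolded proteins. Its peak of 1359 bp (chr12:44209137-44210495) has rank 128 and its centre, 252 bp downstream, is the farthest from a TSS of the 9. It reaches 427 bp upstream and 931 bp downstream. The authors annotate its centre to the promoter of the microRNA gene Mir5627. Both ends of Mir5627 lie inside the peak, 245 and 305 bp upstream of the TSS of Dnajb9, and so not on the centre's side of it.

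Dnajb11 had a peak of 1124 bp (chr16:22857327-22858450, promoter, rank 232) centred 43 bp downstream of the TSS. An end of the protein-coding gene Tbccd1 lies inside it, 150 bp from the start of Dnajb11. The list cannot divide this interval between the neighbours. Dnajc3, whose protein holds misfolded chains and inhibits the kinase PERK, had one of 1103 bp (chr14:118937480-118938582, promoter, rank 245) centred 99 bp downstream. Dnajb11 and Dnajc3 differ by 21 bp, and without replicates such a difference cannot be read.

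Dnajc10 encodes ERdj5, a disulfide reductase with a J domain that acts in ER-associated degradation. Its peak was the narrowest of the 9, at 413 bp (chr2:80315379-80315791), with rank 2112, in the middle of the list. It is annotated to the 5' untranslated region in exon 1 of 23, and it begins 87 bp upstream of the TSS and ends 325 bp downstream. The Hspa5 peak is 5.73 times as wide. Dnajc1 encodes ERdj1, a membrane-bound J protein that also contacts the ribosome. No peak lies inside this gene of 188.5 kb (chr2:18205634-18394099), and the nearest peak, of 269 bp at Mllt10, is 141.2 kb away. How deep the libraries are is not known, so a weaker peak at Dnajc1 cannot be told apart from no peak.

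Both BiP cofactors had a peak of over 1000 bp. Sil1 is a nucleotide exchange factor of BiP, loss of which causes Purkinje cell degeneration in mice. Its peak of 1864 bp (chromosome 18, 35498030 to 35499893, promoter) is the second widest of the 9, has rank 37 and is centred 36 bp upstream of the TSS. Sdf2l1 forms a complex with ERdj3, the product of Dnajb11, and prevents the aggregation of BiP's substrates. It had a peak of 1274 bp (chr16:17131549-17132822, exon 1 of 3, rank 152) centred 198 bp downstream, with 834 bp of its length inside the gene and 439 bp upstream.

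**Figure D2:**
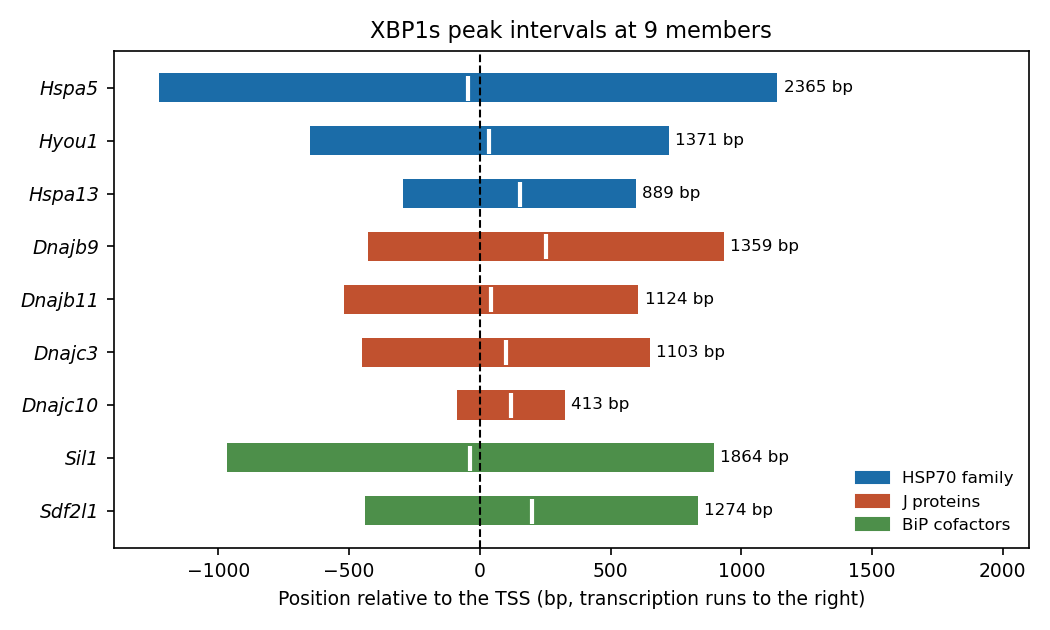
XBP1s peak intervals at 9 genes as horizontal bars, on the x axis in bp from the TSS implied by the authors' distances, with colours for the 3 roles and a white tick at each centre. All 9 bars cross the TSS, and 7 of them extend farther into the gene than upstream, Hspa5 and Sil1 being the exceptions. The share of all peaks that do so was not counted.

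The centres of the 9 peaks ranged from 45 bp upstream (Hspa5) to 252 bp downstream (Dnajb9), with a median distance of 99 bp, against 195 bp over all peaks. The centres of 2 peaks were upstream of the TSS and those of 7 downstream. The same split was not counted over all peaks, so it is not read as a trait of these genes. Upstream reach varied from 87 bp (Dnajc10) to 1227 bp (Hspa5), and downstream reach from 325 bp (Dnajc10) to 1137 bp (Hspa5). The implied TSS fell within 10 bp of an end of the RefSeq gene for 6 of the 9. It was 20 bp away for Dnajc10, 458 bp for Hspa13 and 465 bp for Sil1, so the distances of the last 2 refer to a start inside the RefSeq gene. The Hspa13 peak reaches only 292 bp upstream of its implied TSS, so it does not cover the RefSeq start. The Sil1 peak reaches 968 bp upstream and covers it.

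The median width of the 9 peaks was 1274 bp (interquartile range 1103 to 1371). Over all 3890 protein-coding genes with a peak, the median of the widest peak was 404 bp (interquartile range 279 to 615). The peaks of 8 of the 9 genes lie above that upper quartile, and the peak of Dnajc10 lies near the median.

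**Figure D3:**
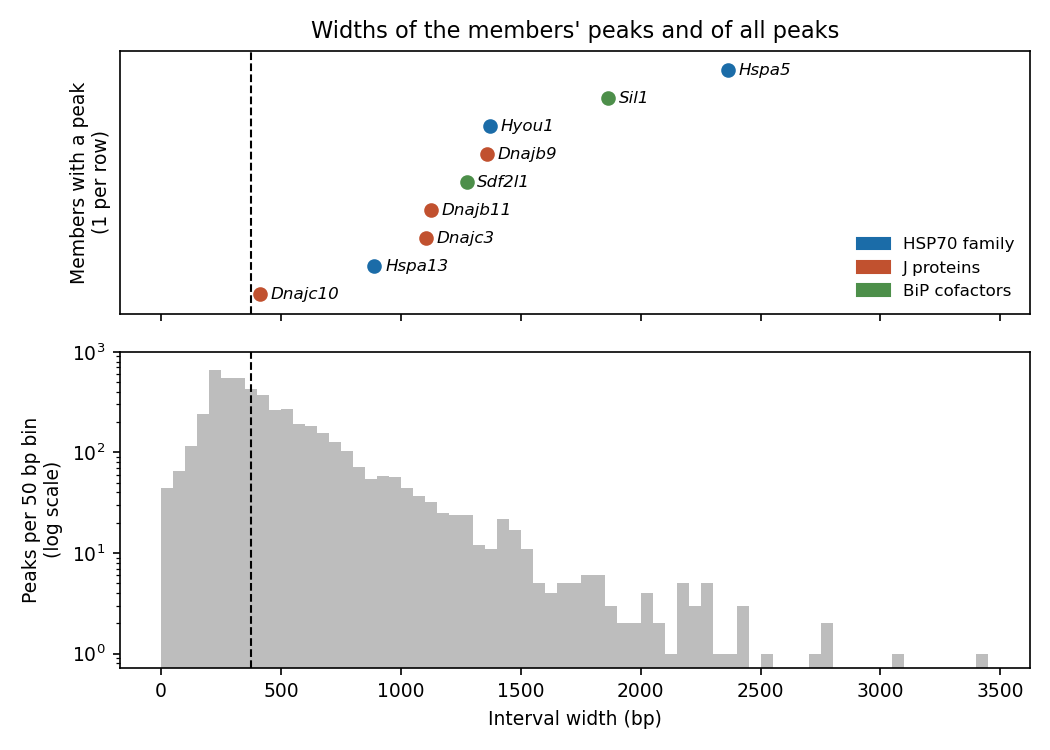
Upper panel: width in bp of the peak at each of 9 genes, 1 per row, coloured by role. Lower panel: number of peaks per 50 bp bin of width on a log scale for all 4890 peaks, with the median of 373 bp dashed in both panels. The 9 genes span 413 to 2365 bp.

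The surroundings of the peaks differed from gene to gene. Within 100 kb of the Hyou1 peak lay 5 other peaks, the nearest 16630 bp away at Slc37a4, and within 100 kb of the Hspa5 peak 4, the nearest 16345 bp away at Gapvd1. Dnajb9 and Sil1 each had 1 other peak in that range. The peaks of Hspa13, Dnajb11, Dnajc3, Dnajc10 and Sdf2l1 had none, and the next peak to that of Hspa13 was 2431689 bp away.

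Relatives of these genes that act elsewhere in the cell were compared as 3 lists. Of 12 HSP70 and HSP110 genes outside the ER, 4 had a peak: Hspa8 (998 bp), the constitutive cytosolic HSP70, Hspa9 (873 bp), the mitochondrial one, Hspa4 (596 bp) and Hsph1 (214 bp). Neither of the stress-inducible genes Hspa1a and Hspa1b had one. Reads from these near-identical copies are hard to place, and the sources used here do not say how they were treated. Of 33 J-domain genes outside the ER, 11 had a peak, the widest at Dnajc5 (810 bp), Dnajc7 (675 bp) and Dnaja3 (609 bp). Of 9 nucleotide exchange factors outside the ER, 4 did: Bag6 (600 bp), Bag5 (567 bp), Grpel1 (563 bp) and Hspbp1 (260 bp). Together 19 of these 54 genes had a peak (35.2%), with a median width of 563 bp, and 0 had one of 1000 bp or more. Such peaks were found at only 1.36% of all protein-coding genes, so this count of 0 is no contrast with other genes. The peaks at 7 of the 9 listed genes were wider than the widest of these 19. The share of 35.2% is itself above the 17.8% of all protein-coding genes. Counting also peaks of other genes within 1000 bp of a gene end, 5 of 12, 13 of 33 and 4 of 9 genes of the 3 lists had one. By that rule the share of all protein-coding genes was 21.3%. No test was made of these differences.

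Other ER genes that act with BiP, from a second list, were mixed. Of 11 genes, 6 had a peak (54.5%) and 3 had one of 1000 bp or more, against 17.8% and 1.36% of all protein-coding genes. The widest were at Manf (1849 bp), which encodes a secreted ER stress protein that binds BiP, Sec63 (1421 bp), a membrane J protein of the translocon, and Ficd (1060 bp), the enzyme that AMPylates BiP. Sdf2, the paralog of Sdf2l1, had a peak of 767 bp against 1274 bp at Sdf2l1. Of the other membrane-anchored J proteins, Dnajc25 had a peak of 403 bp, near the median of 404 bp over protein-coding genes with a peak. Dnajc14 had a narrower one of 226 bp, and Dnajb12, Dnajb14, Dnajc16 and Dnajc18 had none. Hsp90b1, which encodes the ER chaperone GRP94, had no assigned peak. A peak of 2446 bp assigned to its neighbour Ttc41 lies within 1000 bp of a boundary of Hsp90b1. The start and the end of the gene were not told apart in this count.

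**Figure D4:**
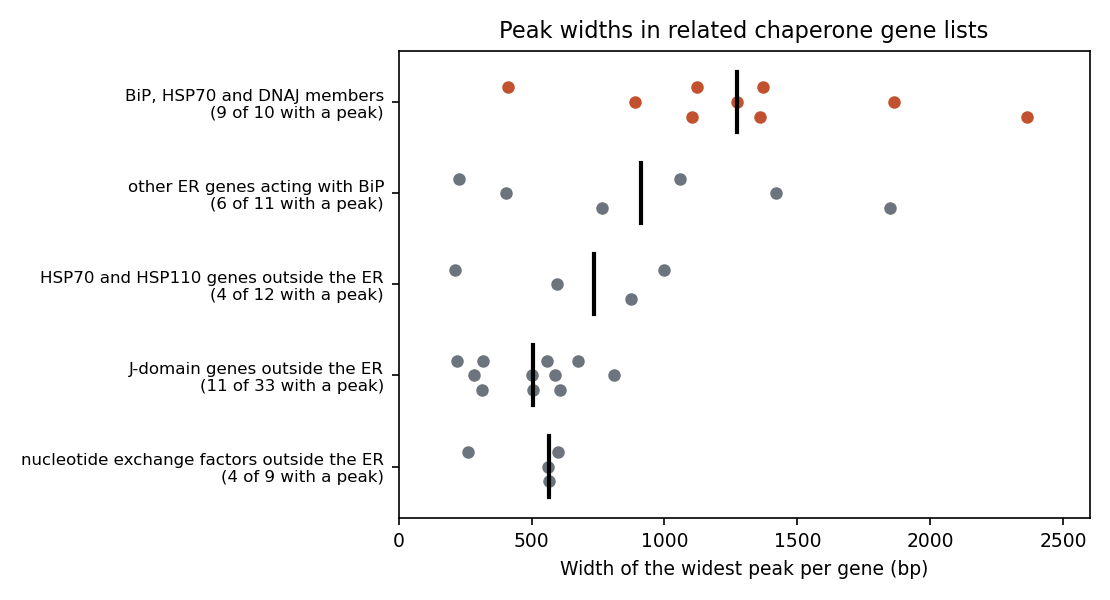
Width in bp of the widest peak per gene (x axis) in 5 gene lists (rows), with 1 point per gene that has a peak and a black bar at the list's median: 1274, 913.5, 734.5, 507 and 565 bp from top to bottom. Row labels give how many genes of each list have a peak, and genes without one are not drawn.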

How the data were processed

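XBP1s ChIP-seq of mouse splenic NK cells (2 immunoprecipitations, 2 inputs) was analysed from 1 peak table. Per the file header, it is HOMER's annotation of 1 combined set of intervals on mm10. HOMER (versions 4.11 and 4.11.1), the peak caller MACS2 (2.2.7.1), the aligner Bowtie2 (2.4.5), FastQC (0.11.9) and Trim Galore (0.6.7) are named in the submitters' processing notes. Neither the peak threshold nor any pooling of libraries is given in the sources used here. The deposited score is 0 in every row, so width (end minus start plus 1) was used. Nearest genes, distances and annotation are the authors'. Strand came from the RefSeq promoter table, or, for Hyou1, Hspa13 and Sil1, from the gene end nearer to the implied TSS. Peaks were matched to RefSeq by Entrez number (4885 of 4890 found). The motif search was tested on simulated data. Python 3.11.15, pandas 2.3.3, SciPy 1.17.1 and matplotlib 3.10.9 were used.

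The genes and lists were chosen with earlier results of these data known. All members are named, as are up to 3 genes with the widest peaks per list (others named beyond these were chosen after their values were seen). Also named are the 2 next wider and narrower peaks beside that of Hspa5, and genes with a start or end within 1000 bp of a peak. No test was planned or made, because a single list has no replicates. The alternatives changed the window around the TSS, the minimum width, the assignment of genes and the motif.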

Additional observations from a re-analysis of the deposited data

How the results depend on the processing

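The 9 genes with a peak, their 9 peaks and their median width of 1274 bp were the same with peaks within 5000 or 1000 bp of a TSS, with peaks wider than the median (used because the deposited score is constant), with peaks of at least 200 bp, and with peaks near either gene end added. The share of all protein-coding genes with a peak, 17.8%, moved to 15.9% within 5000 bp, 15.1% within 1000 bp, 9.8% with peaks wider than the median, 16.5% with at least 200 bp and 21.3% with either gene end. The count of 2 genes with ERSE was the same before the start only and with 1 mismatch (an alternative chosen after the data were seen, as was the count of CCAAT boxes), and was 6 with CCACG alone. The list holds no values per library, so leaving out each replicate was not run. No paired analysis was possible because no column carries a replicate and no test was made.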

Other observations

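ERSE or ERSE-II in the RefSeq window picked out 49 genes of the 27025 with a window, 3 of them Hspa5, Dnajc3 and Dnajb11. Of the 49 genes, 18 had an XBP1s peak (36.7%), against 11.9% of all genes with a window, and 12 of the 18 peaks were 1000 bp or wider. Besides the 3 genes, ERSE was found at Canx (peak of 2785 bp) and Calr (1902 bp), which encode the lectin chaperones calnexin and calreticulin, at Pdia6 (2024 bp), an ER disulfide isomerase, at Syvn1 (1378 bp), the ubiquitin ligase of ER-associated degradation, and at Alg12 (1441 bp), a mannosyltransferase. ERSE-II was found at Herpud1 (1773 bp), which acts with that ligase. The 15 genes besides the 3 also include ones not known for an ER role: Pan2 (ERSE, 2203 bp), Rbm39 (ERSE-II, 1763 bp), Lrif1 (ERSE-II, 1214 bp), Rcl1 (ERSE-II, 662 bp) and Hnrnpa3 (ERSE, 256 bp). The peak assigned to Hnrnpa3 is centred more than 1000 bp upstream of the TSS. A wider peak of 2508 bp, assigned to Gm6793, lies within 1000 bp of an end of Hnrnpa3, so 256 bp is not the widest peak near this gene. Peaks at genes with ERSE were not all wide: those of Derl3 and Ero1b, also ER genes, were 484 and 388 bp. Among genes with a peak within 1000 bp of a TSS, the median width was 1671.5 bp for the 10 with ERSE and 413 bp for the 2852 without. For the CRE it was 393 bp with (166 genes) and 416 bp without. These genes were chosen after their values were seen, the medians include Hspa5 and Dnajc3, and no difference was tested.

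Of the 31 genes with either element and no assigned peak, 4 had a peak of another gene within 1000 bp of an end. They include Hsp90b1 (2446 bp, assigned to Ttc41) and Creld2, an ER stress gene with a boundary near the 1441 bp peak assigned to Alg12. Either end of a gene counted, its start included.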
